A study of Mus musculus with 6 samples.

Results

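The genes described here encode the proteins of the cytosolic ribosome. They were taken by symbol: a single annotated symbol that starts with Rpl or Rps and a digit, or is Rplp0, Rplp1, Rplp2 or Rpsa, without the Rps6k kinases and pseudogenes. The rule found 50 genes, 26 named for the large and 24 for the small subunit, of 18194 genes measured in the series. Each gene was represented by the probe set with the highest mean over the 6 arrays. A further 31 ribosomal protein symbols, among them Rpl3, Rpl5, Rpl10, Rplp1, Rps12 and Rps23, occurred only on probe sets that carry other symbols too, so they are not members. Rps19bp1 and Rpl7l1 meet the symbol rule although they are not ribosome subunits: the first is a binding partner of Rps19, and the second is an Rpl7-like protein of ribosome precursors.

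The samples were hematopoietic progenitors sorted from the bone marrow of adult mice and measured on Affymetrix 3' expression arrays, in 3 groups of 2 arrays. WT LMPP, lymphoid-primed multipotent progenitors, were LIN-SCA1+KIT+FLT3hi cells of C57bl/6 mice. E2A-KO LMPP were cells of the same gate from mice on the same background that lack E2A, the helix-loop-helix factors made from the gene Tcf3. WT LSK FLT3- were LIN-SCA1+KIT+ cells of C57bl/6 mice that do not carry FLT3 on the surface, a fraction in which the stem cells of blood lie. Knockout LSK FLT3- cells are not among the titles, and the genotypes were compared in LMPP only. The labels do not say how the E2A allele was made, whether mice were pooled, or whether the arrays of a group are separate mice or sorts, so p-values measure the spread between arrays, which may be technical.

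A eukaryotic ribosome joins a small subunit, which reads the mRNA, to a large subunit, which forms the peptide bond, and each is built from ribosomal RNA and many proteins. Most of these proteins are needed in equal number, and their mRNAs share a run of pyrimidines at the 5' end, the TOP motif, through which growth signals control their translation. In blood formation, stem cells are known for a low rate of protein synthesis, and loss of single ribosomal proteins is known to cause anaemia.

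The start sites of several members are shown first, because the TOP run is a known feature of these genes that the symbol rule did not use; not every start has it. Each line gives the 10 bases before and the 20 bases from the annotated start, 5' to 3' on the gene's strand, from RefSeq on GRCm38.p6, with the longest run of C and T in capitals. The first 4 genes were higher in WT LMPP than in WT LSK FLT3-, Rps19bp1 was lower, and Rpl7l1 was lower in E2A-KO LMPP than in WT LSK FLT3-. Rpl35 and Rps18 passed the threshold in no comparison of the deposited values, though Rps18 did with a variance trend and robust estimation.
Rpl27a, chr7:109519185-109519214, plus strand: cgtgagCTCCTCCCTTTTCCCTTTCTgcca
Rps15, chr10:80292421-80292450, plus strand: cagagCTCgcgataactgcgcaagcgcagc
Rpl39, chrX:37085203-37085232, minus strand: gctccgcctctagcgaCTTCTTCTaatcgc
Rps27, chr3:90213629-90213658, minus strand: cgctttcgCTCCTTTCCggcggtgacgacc
Rps19bp1, chr15:80264287-80264316, minus strand: cggaagtagCTCgccgcgtgtgggcggggc
Rpl7l1, chr17:46782637-46782666, minus strand: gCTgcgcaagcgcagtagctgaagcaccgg
Rpl35, chr2:39005112-39005141, minus strand: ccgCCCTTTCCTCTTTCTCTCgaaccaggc
Rps18, chr17:33955646-33955675, minus strand: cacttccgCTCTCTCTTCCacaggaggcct
The longest run held 20 bases in Rpl27a and 3 in Rps15, the members with the largest rises, 18 in Rpl35 and 11 in Rps18. The members Rps19bp1 and Rpl7l1, which are not subunits, had runs of 3 and 2.

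RefSeq promoters were at hand for 44 members, with 52 annotated starts, and 6 members had no entry. A run of at least 6 C or T on the gene's strand lay in this 30-base window at 28 of the 52 starts (53.8%), against 28.7% of all 32851 promoters of the same length and 28.4% of the 18110 promoters of genes on the array. The median longest run was 6 bases at the members and 4 at all promoters. In the 300 bases from 250 before to 50 after the start, CCGGAAG, the core of an ETS factor site, occurred on either strand in 21 (40.4%) of the members' promoters, in 8.86% of all promoters and in 13.0% of those of genes on the array. AAGATGG, the core of a YY1 site, occurred in 8 (15.4%), in 6.34% and in 6.38%. The motifs overlap where CCGGAAG runs on into AAGATGG. Annotated starts differ between sources, and 37 of the 52 starts equalled that of the gene table, so these matches describe letters in fixed windows.

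The members were among the brightest probe sets of the arrays. Of the 50, 36 had a mean above 10 (log2 of the deposited value) and 33 were among the brightest 1% of genes, which holds 182 genes. Array medians were 3.90 to 4.04. Means ran from 2.73 for Rps16 to 13.66 for Rps20, and Rps16, Rpl39l and Rpl3l lay below the array median in all groups. Signal depends on the probes, so this order is not an order of mRNA amount. Rps16, a core small subunit protein, had 1 probe set with its symbol alone, at 2.70 and 2.68 in WT LSK FLT3-, 2.88 and 2.81 in WT LMPP, with 2.74 and 2.55 in the knockout. That probe set reads near the floor on every array and says little of the gene.

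**Figure D1:**
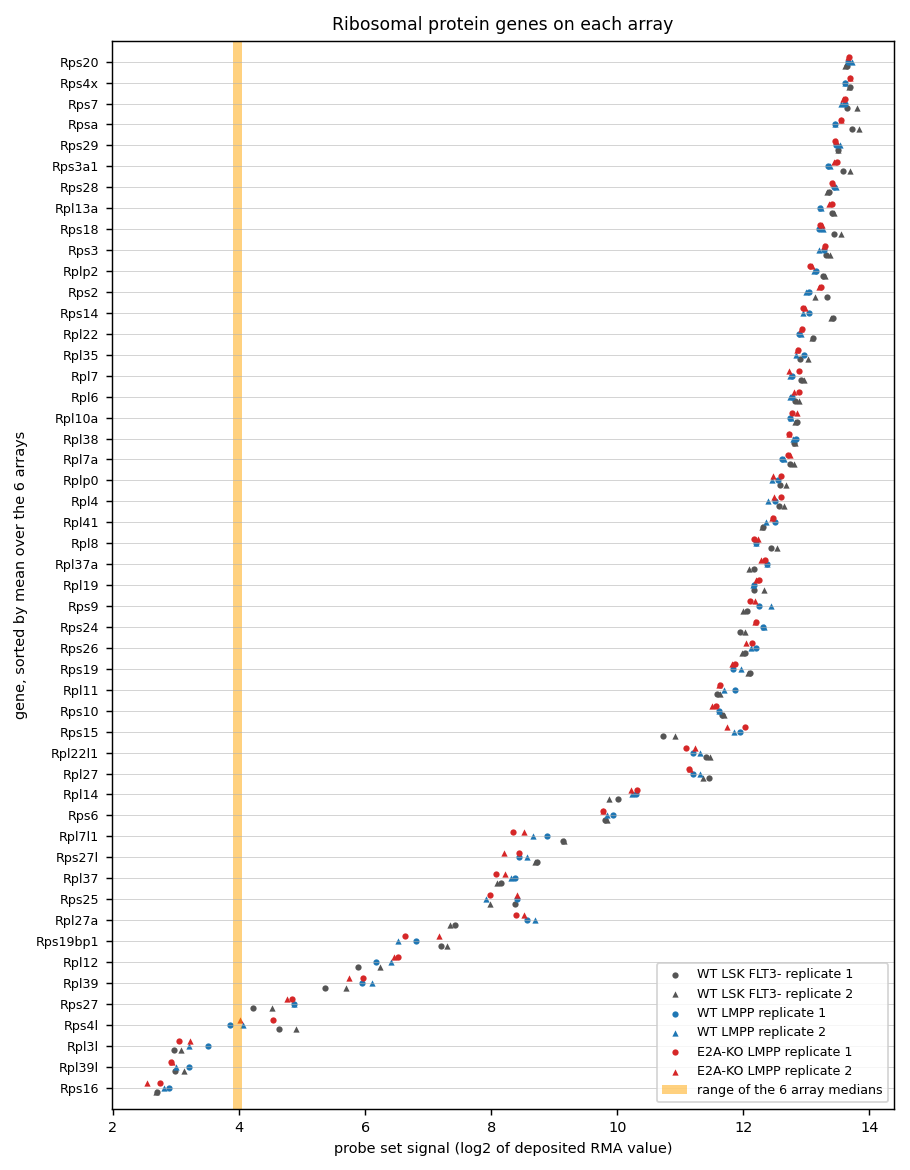
The 50 ribosomal protein genes (vertical axis, sorted by mean) with the log2 signal of each of the 6 arrays (horizontal axis); colours are groups, circles replicate 1, triangles replicate 2, and the band is the range of array medians, 3.90 to 4.04. The points of most genes above 10 lie close together, while those of Rps15 and Rpl27a part the WT LSK FLT3- arrays from the LMPP arrays.

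The first comparison sets WT LMPP against WT LSK FLT3-, and 7 of the 50 members changed. Rpl27a and Rps15 rose to more than double their level in WT LSK FLT3-, Rpl39 and Rps27 rose by less, and Rps4l, Rps19bp1 and Rps14 fell. With limma, adjusted over all genes, 4 members rose, 3 fell and 43 did not pass an adjusted p of 0.05, that is 7 of 50 (14.0%), where 34.1% of all genes passed. By direction, 10.4% of all genes rose and 23.7% fell. Among genes with a mean above 10 on the arrays, 38.0% passed, and of the 36 members in that range 1 rose and 1 fell. The low count depends on the variance model: with a variance trend and robust estimation 9 members rose and 17 fell (52%), where 37.2% of all genes passed, 10.5% higher and 26.6% lower. Under that model 20 of the 36 members above 10 passed (55.6%), where 66.2% of all genes above 10 did. An array value is a share of that array's signal, so fewer cells of a type and less RNA per cell cannot be told apart, and the ribosomal mRNA content of a cell was not measured.

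Rpl27a, a large subunit protein, read 7.43 and 7.34 (log2) in WT LSK FLT3-, 8.57 and 8.69 in WT LMPP, with 8.39 and 8.51 in the knockout. All LMPP arrays of both genotypes were above both WT LSK FLT3- arrays. The change to WT LMPP was 1.25 (SE 0.13, limma adjusted p = 0.000334), a 2.37-fold rise. Its other probe set lay near the floor, at 2.90 on average, with a change of 0.24 (adjusted p = 0.259 over all probe sets in limma).

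Rps15, a protein of the head of the small subunit, read 10.72 and 10.92 in WT LSK FLT3-, 11.94 and 11.85 in WT LMPP, with 12.02 and 11.73 in the knockout. Again no LMPP array overlapped the WT LSK FLT3- arrays. The change was 1.07 (SE 0.15, limma adjusted p = 0.00121), a 2.10-fold rise. Both of its probe sets rose, by 1.07 and 1.19. Rps15 and Rpl27a were also the members whose call held under each of 15 alternative settings, with changes of 0.97 to 1.40 for Rps15 and 0.74 to 1.63 for Rpl27a.

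Rpl39, which lines the exit tunnel of the large subunit, read 5.36 and 5.70 in WT LSK FLT3- and 5.96 and 6.12 in WT LMPP. The arrays do not overlap, and the change was 0.51 (SE 0.16, limma adjusted p = 0.0398), or 1.42-fold. Rps27, a small subunit protein, read 4.21 and 4.53 in WT LSK FLT3- and 4.88 and 4.87 in WT LMPP, a change of 0.50 (SE 0.14, limma adjusted p = 0.0272). Both probe sets are dim, and Rps27 lies near the array median, where how far changes are compressed was not tested. Rpl39 lost its call without any 1 of the 4 arrays compared (0.33 to 0.68, limma adjusted p = 0.0593 to 0.281). Rps27 lost it without either WT LMPP array or without WT LSK FLT3- replicate 1 (0.35 to 0.51, limma adjusted p = 0.0632 to 0.223).

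Rps4l, a paralog of Rps4x, read 4.64 and 4.91 in WT LSK FLT3- and 3.86 and 4.06 in WT LMPP. It fell by 0.81 (SE 0.19, limma adjusted p = 0.0129), a level 1.75-fold lower, from a value near the array median. The call was lost without WT LMPP replicate 1 or without WT LSK FLT3- replicate 2 (-0.71 and -0.67, limma adjusted p = 0.0590 and 0.116). Rps4x, its namesake, read 13.69 and 13.68 in WT LSK FLT3- and 13.61 and 13.62 in WT LMPP (change -0.07, SE 0.12).

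Rps14, a small subunit protein whose human gene lies in the chromosome region lost in a myelodysplastic syndrome with anaemia, read 13.41 and 13.39 in WT LSK FLT3- and 13.04 and 12.94 in WT LMPP. It fell by 0.41 (SE 0.13, limma adjusted p = 0.0332), the single fall among members above 10. Its other probe set, as bright (both at a mean of 13.12), changed by -0.12, and over all probe sets neither passed in limma (adjusted p = 0.0521 and 0.549). With the mean of both the change was -0.084 (limma adjusted p = 0.587). Without any 1 of the 4 arrays the call was lost (-0.47 to -0.36, limma adjusted p = 0.0508 to 0.170). Rps19bp1 read 7.20 and 7.30 in WT LSK FLT3- and 6.81 and 6.52 in WT LMPP and fell by 0.58 (SE 0.19, limma adjusted p = 0.0447). Its call was lost without WT LMPP replicate 2 or either WT LSK FLT3- array (-0.63 to -0.44, limma adjusted p = 0.147 to 0.208). Across the group, leaving out any 1 of the 4 arrays of the comparison left 1 array in its group. Fewer members passed then, and fewer of all genes too. Whether members lost calls more often than other genes was not tested.

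The other members differed little. The median change over the 50 was -0.08, against -0.01 over all genes and -0.22 over the 639 genes with a mean above 10, with a middle range from -0.19 to 0.16. The sign of the median depends on the scaling: it was -0.0035 after quantile normalization, -0.19 after centring on array medians and 0.25 after centring on the arrays' 75th percentiles, which moved the median of all genes to 0.02, -0.12 and 0.32. The arrays did not overlap between the groups for 44 members, 17 higher and 27 lower, where 71.8% of all genes did not overlap, 32.4% higher and 39.3% lower. An unadjusted p under 0.05 was reached by 13 members, that is 26% of them, where 45.2% of all genes reached it.

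The upper part of the value distribution differed between the fractions, with array 75th percentiles of 6.13 and 6.15 in WT LSK FLT3- and 5.78 to 5.82 in LMPP. After quantile normalization, which gives every array the same distribution, 7 members rose and 1 fell, where 19.2% of all genes changed, 9.10% rising and 10.1% falling. Rpl27a (1.63), Rps15 (1.28), Rpl39 (0.77) and Rps27 (0.51) rose again, and Rpl12, Rpl14 and Rpl37 joined them with changes of 0.57, 0.55 and 0.56 (limma adjusted p = 0.0333, 0.0225 and 0.0184). Those 3 large subunit genes were named after their values were seen. Rps4l fell (-0.82), while Rps14 (-0.37) and Rps19bp1 (-0.18) did not pass. Of all genes called, 30.5% were higher in WT LMPP as deposited, 47.5% after quantile normalization, 17.8% after centring on medians and 78.8% after centring on 75th percentiles. On the last scale 21 members rose (42%) and 0 fell, where 41.1% of all genes rose and 11.1% fell. On the median scale 2 rose and 7 fell, where 6.38% of all genes rose and 29.5% fell.

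**Figure D2:**
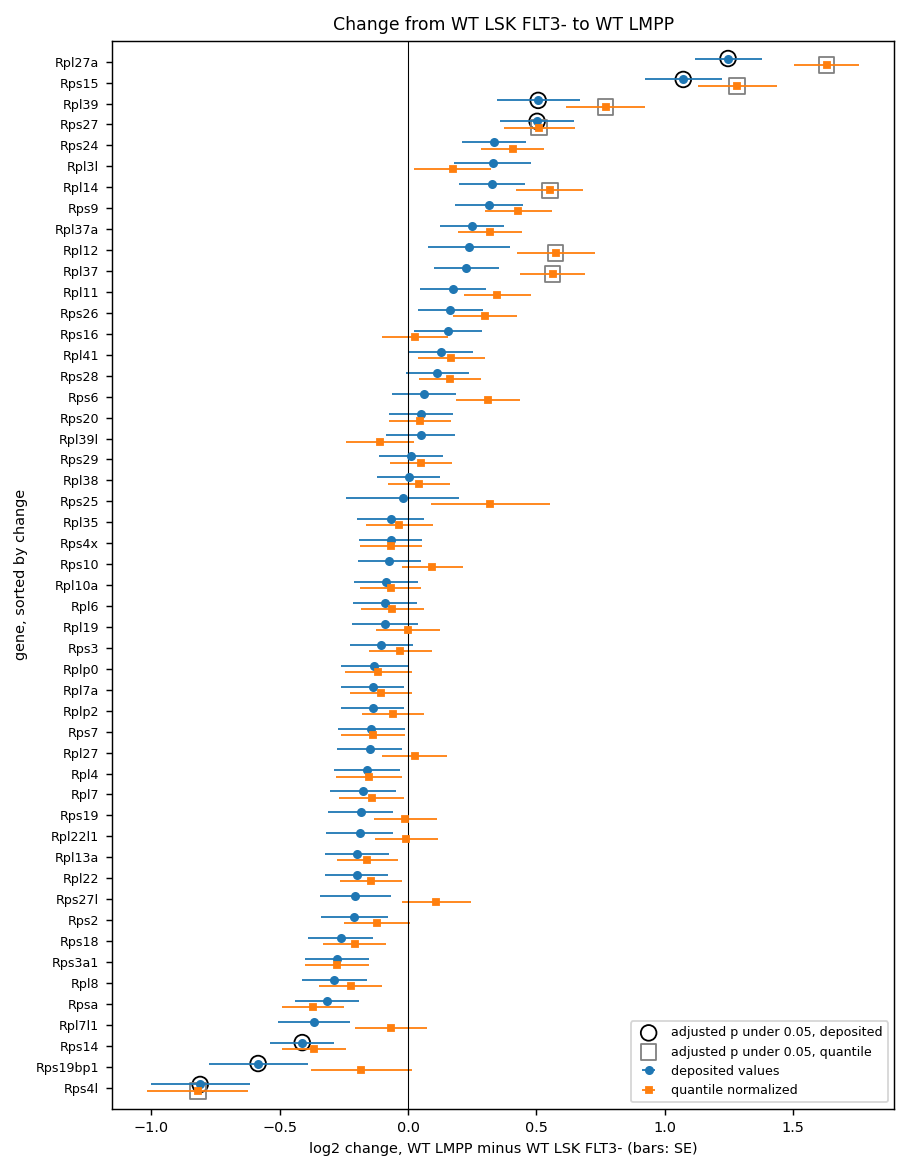
Log2 change from WT LSK FLT3- to WT LMPP (horizontal axis, bars are the SE) of each of the 50 genes (vertical axis), as deposited (circles) and after quantile normalization (squares), with an outline where limma's adjusted p was under 0.05. Rpl27a and Rps15 stand at the top on both scales, and 43 and 42 genes have no outline.

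The remaining genes chosen by role did not pass the test, and their values were as follows. With a variance trend and robust estimation Rplp2, Rpsa and Rps19 were called lower in WT LMPP, where 26.6% of all genes were. Whether these 3 pass thus depends on the variance model. Rplp0 and Rplp2 form the stalk of the large subunit that recruits elongation factors. Rplp0 read 12.58 and 12.68 in WT LSK FLT3-, 12.54 and 12.46 in WT LMPP, with 12.59 and 12.47 in the knockout. Rplp2 read 13.27 and 13.29, 13.16 and 13.12, and 13.05 and 13.09 in the same order. Both stalk genes were slightly lower in WT LMPP, with no difference that passed the test (limma adjusted p = 0.456 and 0.408).

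Rpsa, a small subunit protein also known as a laminin receptor, read 13.72 and 13.83 in WT LSK FLT3-, 13.46 and 13.45 in WT LMPP, with 13.55 and 13.55 in the knockout. Its change to WT LMPP was -0.32 (SE 0.13, limma adjusted p = 0.0827), with no overlap of arrays. Rps19, the gene most often mutated in Diamond-Blackfan anaemia, read 12.11 and 12.07, 11.84 and 11.97, and 11.87 and 11.82 in that order of groups. Its change of -0.19 had a 95% interval of -0.47 to 0.10.

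Rpl11, which together with Rpl5 binds Mdm2 when free of the ribosome, read 11.58 and 11.63 in WT LSK FLT3-, 11.86 and 11.70 in WT LMPP, with 11.63 and 11.62 in the knockout. Its change to WT LMPP was 0.17 (95% interval -0.12 to 0.47). Rps6, the ribosomal substrate of S6 kinase, read 9.80 and 9.83, 9.93 and 9.84, and 9.77 and 9.77, a change of 0.06 (95% interval -0.22 to 0.34). After quantile normalization the changes were 0.35 (95% interval 0.05 to 0.65) for Rpl11 and 0.31 (95% interval 0.02 to 0.60) for Rps6, and neither passed (limma adjusted p = 0.102 and 0.126), so the size depends on the scaling.

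The paralogs named after other members were compared each with its own level in the other group. Rpl22l1 read 11.41 and 11.47 in WT LSK FLT3- and 11.20 and 11.31 in WT LMPP (change -0.19, SE 0.13). Rpl22, whose loss is known to block the development of alpha-beta T cells, read 13.10 and 13.09 and then 12.88 and 12.91 (change -0.20, SE 0.12). Neither passed the threshold, though Rpl22 was called lower with a variance trend and robust estimation. After quantile normalization the changes were -0.0063 for Rpl22l1 and -0.14 for Rpl22, and the other 2 probe sets of Rpl22 gave 0.21 and -0.39, so the values depend on the scaling and on the probes. The difference within the pair was not tested.

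Rps27l, known as a p53 target, read 8.73 and 8.69 in WT LSK FLT3- and 8.43 and 8.57 in WT LMPP (change -0.21, SE 0.14), a sign that turned to 0.11 after quantile normalization. Its namesake Rps27 rose on both scales, as given above. Rpl39l, known from testis, and Rpl3l, known from muscle, averaged 3.03 and 3.17 over the 6 arrays, below the array medians, and did not pass. Rps20, the member with the highest mean, read 13.65 and 13.62 in WT LSK FLT3- and 13.65 and 13.72 in WT LMPP. The arrays' highest values were 14.55 to 14.64, so the brightest members lay near the top of the scale, and how far changes are compressed there was not tested.

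Genes with several probe sets show how far the reading depends on the probes. The 50 members had 106 probe sets with their symbol alone, and 24 members had 2 or more. Fitted over all 45101 probe sets, 9 of the 106 rose and 5 fell, where 23.6% of all probe sets changed, 8.09% rising and 15.5% falling. In 15 of the 24 genes the probe sets had changes of both signs, in 9 of 1 sign, and in 0 were there opposite calls. The median spread between the lowest and highest change of a gene was 0.46.

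Some of the dimmer probe sets passed where the brightest did not, and these genes were named after their values were seen. For Rps10, 1 of 6 probe sets rose (1.04, limma adjusted p = 0.00256), at a mean of 9.67, and the brightest, at 11.61, changed by -0.07. For Rpl37a, 1 of 3 rose (1.13, limma adjusted p = 0.00376), while the brightest changed by 0.25. For Rps24, 2 of 6 rose, by 0.67 and 0.46.

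Rps20 had a dim probe set, at 4.14 on average, that fell by 0.95 (limma adjusted p = 0.0137), while the brightest changed by 0.05. Rpl7l1 was negative on all 3 of its probe sets, with changes of -0.37, -1.17 and -0.76, of which the last 2 passed (limma adjusted p = 0.00170 and 0.00606). Rps27l was negative on all 3 as well in the deposited values, and 1 passed (-0.51, limma adjusted p = 0.0459). A further 110 probe sets carry a ribosomal protein symbol beside other symbols. Of these, 4 rose and 7 fell, with a median change of -0.07, where 8.09% of all probe sets rose and 15.5% fell. After quantile normalization 7 rose and 3 fell, with a median of 0.0030, where 9.10% of all genes rose and 10.1% fell. The direction thus depends on the scaling.

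**Figure D3:**
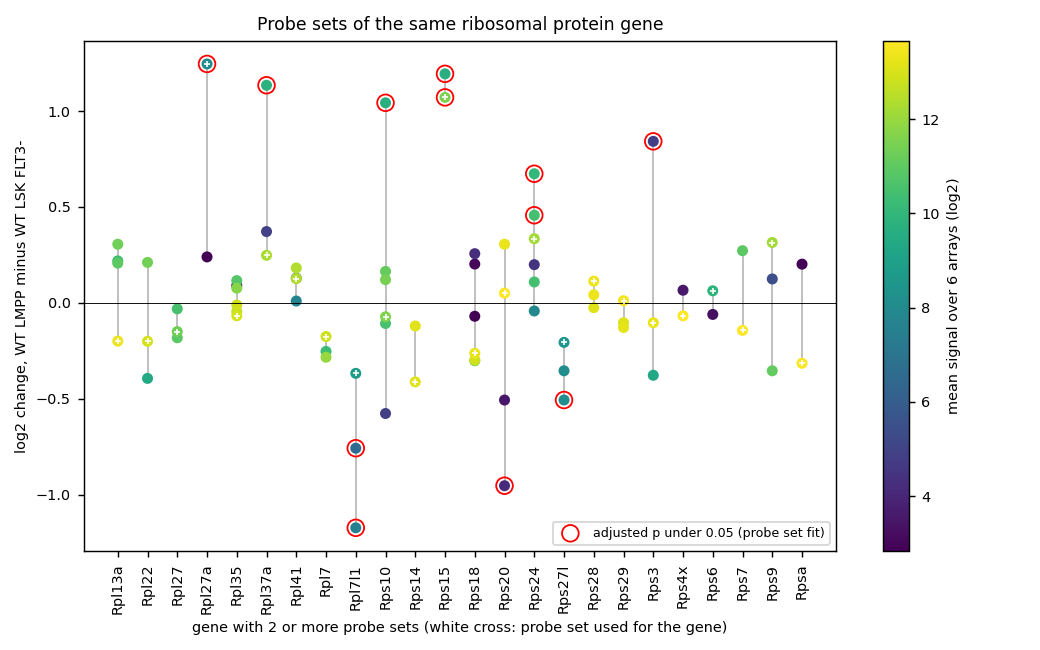
Log2 change from WT LSK FLT3- to WT LMPP (vertical axis) of each probe set of the 24 genes with 2 or more (horizontal axis), coloured by mean log2 signal, with a white cross on the probe set used for the gene and a red ring where limma's adjusted p was under 0.05 over all probe sets. Both Rps15 points are ringed above 1, and in 15 genes the points lie on both sides of 0.

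The knockout comparison, E2A-KO LMPP against WT LMPP, was the stated goal of the experiment. With limma, 0 of the 50 ribosomal protein genes rose and 0 fell, where 1.37% of all genes passed, 0.379% higher and 0.995% lower, and 0.313% of genes with a mean above 10. An unadjusted p under 0.05 was reached by 1 member, Rpl7l1, where 14.6% of all genes reached it. The members' changes ran from -0.34 (Rpl7l1) to 0.31 (Rps4l), with a median of -0.02 against -0.02 over all genes. The median size of a change, without its sign, was 0.077 in the members and 0.152 over all genes. Bright genes in general changed less: it was 0.065 in members with a mean above 10 and 0.094 in all genes above 10. In members with a mean of 10 or below it was 0.191.

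The intervals bound these differences between arrays as follows. The 95% intervals of all 36 members above 10 lay between -0.50 and 0.49, so for the probe set used each lay within 0.5 (log2) in either direction. The lowest bound, -0.499 for Rps9, only just did. The spread between arrays may be technical, so the bound may not hold between mice. This bound does not extend to every probe set: of the 64 member probe sets above 10, 58 had such intervals and 6 did not, of Rpl27, Rpl35, Rps2, Rps24 and Rps9. For Rpl27, a probe set at a mean of 10.88 changed by -0.47 (95% interval -0.77 to -0.16, limma adjusted p = 0.171 over all probe sets). Dim probe sets of Rps10 and Rps9 gave 0.77 and 0.71 (limma adjusted p = 0.122 and 0.107). After quantile normalization 35 of the 36 intervals lay within 0.5, and that of Rpl11 reached -0.502. For the probe sets used, 42 of the 50 members' intervals lay within 0.5 and 50 within 1. The 8 wider ones belong to Rpl12, Rpl39, Rpl3l, Rpl7l1, Rps16, Rps19bp1, Rps25 and Rps4l, which all have means of 10 or below. The arrays did not overlap between the genotypes for 28 members, 11 higher and 17 lower, where 41.6% of all genes did not overlap, 18.8% higher and 22.8% lower.

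Rpl7l1 read 8.89 and 8.67 in WT LMPP, with 8.34 and 8.52 in the knockout, with 9.14 and 9.15 in WT LSK FLT3-. Its change with the knockout was -0.34 (SE 0.14, limma adjusted p = 0.304, 95% interval -0.66 to -0.02), and its other 2 probe sets gave -0.17 and 0.08. Rps4l read 3.86 and 4.06 in WT LMPP, with 4.54 and 4.02 in the knockout, overlapping between the genotypes. Rps15 changed by -0.02 (95% interval -0.36 to 0.32) and Rpl27a by -0.18 (95% interval -0.48 to 0.12). Of the 106 probe sets 0 rose and 0 fell, where 0.987% of all probe sets changed, 0.426% higher and 0.561% lower. After quantile normalization 0 members rose and 0 fell again, where 1.22% of all genes changed, 0.346% higher and 0.874% lower.

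The third comparison, E2A-KO LMPP against WT LSK FLT3-, shares the WT LSK FLT3- arrays with the first, so it is not independent of it. In limma 3 members rose and 2 fell, where 37.5% of all genes changed, 11.0% higher and 26.5% lower. Rpl27a rose by 1.07 (SE 0.13, limma adjusted p = 0.00059), Rps15 by 1.06 (SE 0.15, limma adjusted p = 0.00118) and Rps27 by 0.43 (SE 0.14, limma adjusted p = 0.0431). Rpl7l1 fell by 0.71 (SE 0.14, limma adjusted p = 0.00503) and Rps14 by 0.44 (SE 0.13, limma adjusted p = 0.0235). The other probe set of Rps14 changed by -0.14, and the mean of both by -0.087 (limma adjusted p = 0.572). Both knockout arrays lay outside the WT LSK FLT3- range for each of these genes.

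Rps27 and Rps14 lost the call without any 1 of the 4 arrays compared (changes of 0.28 to 0.59 and -0.45 to -0.43). Fewer of all genes passed then too. The arrays did not overlap for 37 members, 13 higher and 24 lower, where 74.0% of all genes did not overlap, 32.9% higher and 41.1% lower. An unadjusted p under 0.05 was reached by 9 members, where 47.6% of all genes reached it. Of the 106 probe sets 8 rose and 7 fell, where 28.5% of all probe sets changed, 10.5% higher and 18.0% lower. In 1 of the 24 genes with several probe sets the calls were opposite: for Rps3, a small subunit protein, a dim probe set rose by 1.06 (limma adjusted p = 0.00421), another fell by 0.45 (limma adjusted p = 0.0443), and the brightest changed by -0.05. The members' median was -0.05 as deposited, -0.01 after quantile normalization, -0.18 after centring on medians and 0.31 after centring on 75th percentiles, so its sign turns with the last. After quantile normalization 5 members rose (Rpl12, Rpl14, Rpl27a, Rpl39 and Rps15) and 0 fell, where 19.8% of all genes changed, 8.77% higher and 11.1% lower. Centring on medians gave 2 members higher and 10 lower, where 5.79% and 33.8% of all genes were. Centring on 75th percentiles gave 19 and 0, where 43.6% and 12.4% were. A variance trend with robust estimation gave 6 and 12, where 10.9% and 29.2% were. Of all genes called, 29.3% were higher as deposited, 44.2% after quantile normalization, 14.6% after centring on medians and 77.8% after centring on 75th percentiles.

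**Figure D4:**
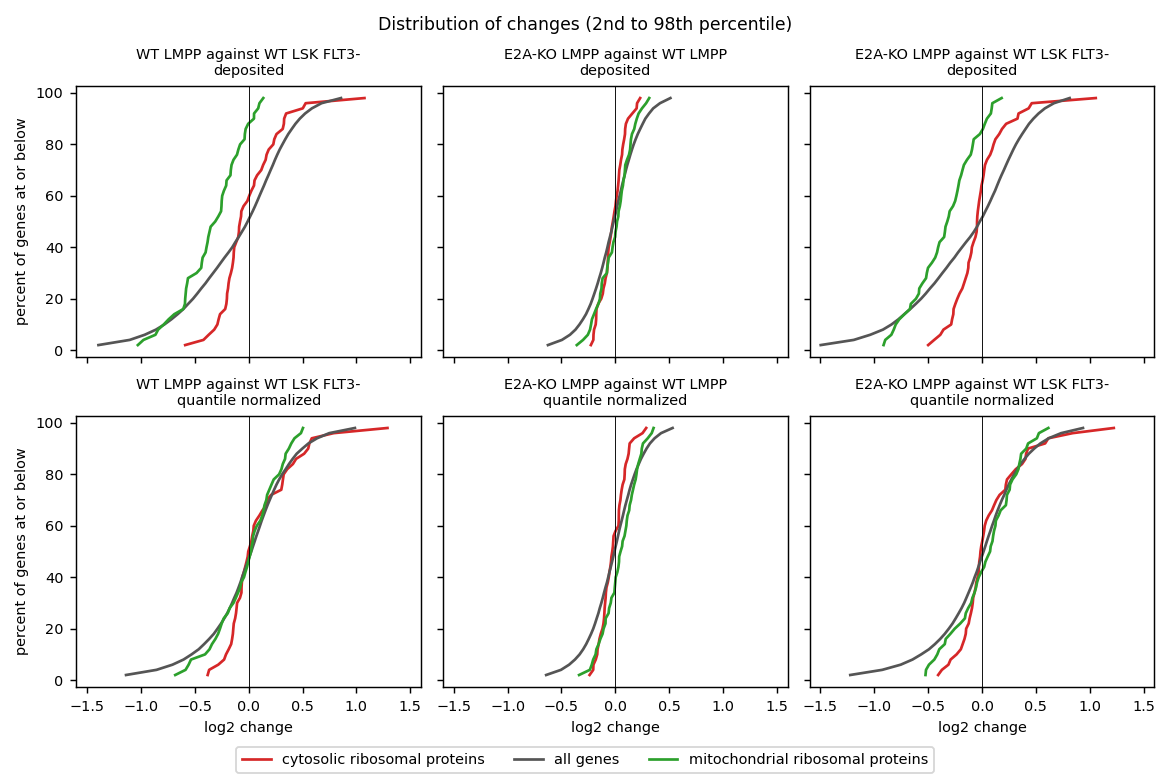
Percent of genes at or below each log2 change (curves from the 2nd to the 98th percentile), for the 50 cytosolic ribosomal proteins, the 76 mitochondrial ribosomal proteins and all 18194 genes, in the 3 comparisons (columns), as deposited and after quantile normalization (rows). In the knockout column the curve of the cytosolic ribosomal proteins is steep around 0, with changes from -0.34 to 0.31, and in the first column the mitochondrial curve lies to the left of 0 (median -0.31) as deposited and near 0 (median 0.02) after quantile normalization.

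Genes that build, feed and regulate the ribosome were counted beside its proteins for WT LMPP against WT LSK FLT3-, where, as above, 10.4% of all genes rose and 23.7% fell. Fau, a ribosomal protein outside the symbol rule, averaged 10.60 (log2) in WT LSK FLT3- and 10.94 in WT LMPP (change 0.35, limma adjusted p = 0.0793, and 0.54 with 0.0231 after quantile normalization). Of 12 elongation factors and other genes classed as TOP mRNAs, whose starts were not examined here, 0 rose and 1 fell. The 1 that fell was Eef2, the translocation factor (-0.69, limma adjusted p = 0.0039). After quantile normalization 1 rose and 1 fell. Of 34 genes of ribosome assembly and rRNA processing 0 rose and 18 fell (52.9%). They were led by Fbl, the rRNA methylase fibrillarin (-0.96), Grwd1 (-0.88), Gar1, of the pseudouridylation complex (-0.82), and Ltv1 (-0.79).

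Of 14 genes of RNA polymerase I, which transcribes ribosomal RNA, 0 rose and 7 fell (50%), led by Taf1b (-1.14), Polr1b (-1.03), Polr1e (-0.79) and Polr1a (-0.76). Of 41 initiation factors 3 rose and 19 fell (46.3%), with the largest changes in Eif2b4 (-0.99), Eif5a2 (-0.98), Eif4a3 (0.88) and Eif3c (-0.85). Of 76 mitochondrial ribosomal proteins 0 rose and 30 fell (39.5%), led by Mrpl50 (-1.42), Mrps9 (-1.07), Mrpl1 (-0.99) and Mrps25 (-0.98). After quantile normalization these counts shrank to 1 higher and 5 lower for assembly, 1 and 2 for polymerase I, 4 and 7 for initiation factors and 5 and 7 for the mitochondrial proteins, so the falls depend on the scaling. On that scale 9.10% of all genes rose and 10.1% fell, and the shares of these lists that fell were 14.7%, 14.3%, 17.1% and 9.21%, so that of the mitochondrial proteins lay near the background.

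Of 14 growth regulators 1 rose and 3 fell: Mycl rose by 0.94, and Mycn (-1.88, limma adjusted p = 5.88e-05), Rptor (-0.73) and Myc (-0.41) fell. Myc proteins are known activators of ribosomal genes, and Mycn averaged 10.35 in WT LSK FLT3- and 8.48 in WT LMPP. After quantile normalization 2 rose and 1 fell: Mycl (0.81) rose, Mtor passed as well (0.57), and Mycn fell (-1.64, limma adjusted p = 0.00033). Rptor (-0.33) and Myc (-0.09) did not pass on that scale (limma adjusted p = 0.222 and 0.665). Of 10 snoRNA host genes Snhg7 rose (0.40) and Snhg4 fell (-0.68), and of Mdm2 and Cdkn1a, which answer to ribosome stress through p53, Mdm2 fell (-0.57). Neither fall was called after quantile normalization (Snhg4 -0.36, Mdm2 -0.20), where Snhg7 (0.79), Zfas1 (0.51) and Cdkn1a (0.62) rose. With the knockout, 1 of the 202 genes of these lists passed (0.495%), where 1.37% of all genes did: Taf1d, a subunit of the polymerase I factor SL1, averaged 8.18 in wild-type and 8.91 in knockout LMPP (change 0.73, SE 0.14, limma adjusted p = 0.0457).

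**Figure D5:**
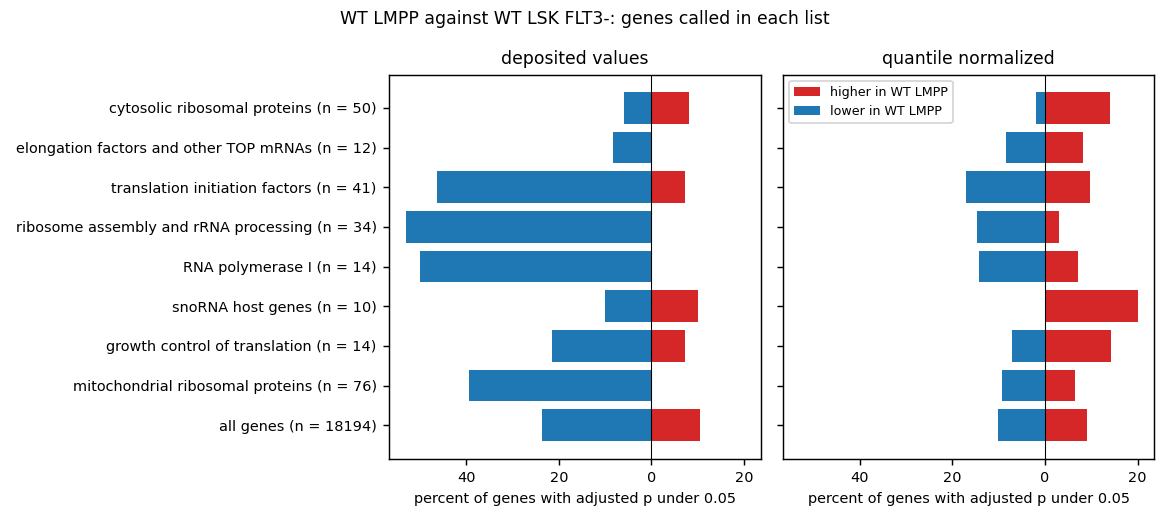
Percent of genes with a limma adjusted p under 0.05 (horizontal axis, higher in WT LMPP to the right and lower to the left) in each list (vertical axis, with the number of genes), as deposited and after quantile normalization. Of the 34 assembly genes 18 fell as deposited and 5 after quantile normalization, while 3 and then 1 of the 50 ribosomal proteins fell.

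Facts of the arrays that move with the groups are given here once, and their part in the results was not tested. The Actb control probe sets differed between the 3' and the 5' end by 3.45 and 3.55 in WT LSK FLT3- and 3.77 to 3.95 in LMPP, while those of Gapdh overlapped between the fractions, at 3.25 and 3.44 against 3.09 to 3.35. Flt3, used in the sort, read 8.87 and 8.76 in WT LSK FLT3- and 10.70 to 10.80 in LMPP, and Kit 10.05 and 10.38 against 8.47 to 9.05. Summed plasma cell markers (4 of 4 measured) stood at 10.33 and 10.50 in WT LSK FLT3-, 7.40 and 7.51 in WT LMPP, and 8.14 and 8.34 in the knockout. Of the 4, 2 were lower in WT LMPP than in WT LSK FLT3- (Jchain and Igha) and 1 was higher (Sdc1). Jchain read 7.83 and 8.05 in WT LSK FLT3- and 3.02 to 3.34 in LMPP. Sdc1 read 5.48 and 5.61 in WT LSK FLT3-, 7.04 and 7.15 in WT LMPP, and 7.91 and 8.14 in the knockout. Summed mature myeloid markers (7 of 7) stood at 10.82 and 10.89, 11.51 and 11.56, and 9.46 and 9.58 in the same order, so these move with the knockout comparison too. Summed stem cell markers (4 of 5) stood at 11.50 and 11.57 in WT LSK FLT3- and 10.10 to 10.29 in LMPP. Summed lymphoid markers (4 of 4) stood at 10.49 and 10.51 in WT LSK FLT3-, 12.96 and 12.98 in WT LMPP, and 11.31 and 11.32 in the knockout. That sum follows Dntt, the brightest, at 10.40 and 10.44 in WT LSK FLT3- and 11.28 and 11.29 in the knockout. Il7r read 5.43 and 5.37 in WT LSK FLT3- and 4.73 and 4.58 in the knockout. Between these 2 groups 1 of the 4 rose, 1 fell and 2 did not pass. Summed stroma markers (4 of 4) stood at 8.20 and 8.34 in WT LSK FLT3-, 8.08 and 8.22 in WT LMPP, and 7.18 and 7.32 in the knockout, with 1 of the 4 lower in the knockout comparison. Summed B cell markers (5 of 6) stood at 6.94 to 7.08 in the wild-type groups and 6.48 and 6.71 in the knockout, and summed T cell markers (4 of 4) at 6.47 in WT LSK FLT3- and 6.85 to 7.06 in LMPP. Summed red cell markers (3 of 5) lay between 5.43 and 5.88 on all arrays, a sum that hides opposite moves. Of the 3, 2 were higher in WT LMPP than in WT LSK FLT3- (Hba-a1 and Alas2) and 1 was lower (Epor). After quantile normalization 1 was higher and 1 lower. Epor, the brightest, read 5.36 and 5.33 in WT LSK FLT3- and 4.52 and 4.66 in WT LMPP. Tcf3 read 6.93 and 6.86 in WT LMPP, with 6.80 and 6.53 in the knockout (limma adjusted p = 0.5), so it does not check the labels.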

How the data were processed

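RNA of 6 sorted samples was amplified in 2 rounds and hybridised, 1 sample per array, per the labels' protocols. The deposited intensity values were made by the authors with RMA, per the submitters' processing notes; they are linear (4.23 to 25594), and log2 was taken. The sources used here do not say if all arrays went through RMA together. There is no read depth, and the number of arrays limits precision. Of 45101 probe sets, 34958 had 1 symbol in the platform annotation, 932 several and 9211 none. Groups came from titles and source names; a free-text label that calls all samples WT LMPP was set aside.

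limma 3.58.1 in R 4.3.3 fitted 1 mean per group on all 6 arrays (3 residual and 5.80 prior degrees of freedom), with two-sided p-values adjusted by Benjamini and Hochberg over 18194 genes. The fit was tested on simulated data. SDs and SEs are on the log2 scale. The members and lists were chosen with earlier results of these data known. Named were called members without overlap between the groups' arrays, paralogs with their namesakes, genes of known role, the highest and lowest member, and up to 4 genes of each other list. Alternatives covered scaling, filters, probe set choice, variance model, replicate block, arrays left out and, added after seeing the data, 2 restrictions of the members. Figures used matplotlib 3.10.9 in Python 3.11.15.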

Additional observations from a re-analysis of the deposited data

How the results depend on the processing

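In the knockout comparison the count of ribosomal protein genes was 0 higher and 0 lower under each alternative run, and its median change moved from -0.02 to -0.053 with arrays centred on their medians and to 0.0041 with centring on 75th percentiles. For WT LMPP against WT LSK FLT3- the count was 4 higher and 3 lower, with a median of -0.08. Quantile normalization gave 7 and 1 (median -0.0035), and centring on medians 2 and 7 (-0.19). Centring on 75th percentiles gave 21 and 0 (0.25), and a variance trend with robust estimation 9 and 17. In these 4 settings 19.2%, 35.9%, 52.1% and 37.2% of all genes passed. Leaving out the dimmest 40% of genes gave 5 and 5 (10.5% and 40.8% of all genes). An adjusted p under 0.1 gave 7 and 5 (15.4% and 28.3%), and the mean of all probe sets a median of -0.011. In the comparison of knockout LMPP with WT LSK FLT3- the count was 3 higher and 2 lower, with a median of -0.05. The 4 settings named first gave 5 and 0 (median -0.014), 2 and 10 (-0.18), 19 and 0 (0.31), and 6 and 12, in the same order. Of all genes 19.8%, 39.6%, 56.1% and 40.1% passed. There, 5 were higher without the dimmest 40%, with the mean of all probe sets, without probe sets ending in _s_at or _x_at and with an adjusted p under 0.1, the last with 4 lower. Alternatives added after seeing the data gave 1 higher and 1 lower among members with a mean above 10 in both WT LSK FLT3- comparisons. There 38.0% and 35.5% of all genes above 10 passed. Without Rps19bp1 and Rpl7l1, 1 member was lower in the second, where 26.5% of all genes were. Leaving out 1 array in turn gave a median of -0.10 to -0.06 in the first and -0.07 to -0.03 in the second. Where the array belonged to a compared group, fewer members and fewer of all genes passed. Without probe sets ending in _s_at or _x_at, Rps20, WT LMPP against WT LSK FLT3-, was read from another probe set and went from 0.05 to -0.95 (limma adjusted p = 0.00978). The cause of the other differences was not tested. A replicate block gave 4 and 2, 0 and 0, and 2 and 2, where 32.5%, 1.10% and 35.9% of all genes passed. The labels do not say that the replicate numbers pair samples, and same-numbered arrays' deviations correlated at -0.02, 0.02 and -0.04.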
